A study of Mus musculus with 18 samples.

Results

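The genes described here encode proteins of the spliceosome and the factors that guide it, measured on arrays in thymocytes of ageing C57BL/6 mice. Members were chosen by gene name, with earlier results of these data known, and the list as a whole was not tested. They are the non-control probes whose array name begins with Snrp, Sf3a, Sf3b or U2af, or with Sfrs, Srsf or Prpf and a digit. The rule found 40 probes of 31 gene names among 41174 distinct probes. Of the 40, 38 probes covering all 31 names were bright enough to be tested, among 37448 tested in all. The 2 left out, among them 1 of 3 probes for Sf3b1, did not meet the rule for brightness. That Sf3b1 probe was well above background in Cy5 on 8 of the 9 arrays, and in Cy3 on 1 array of 6 months only. Testing required a signal well above background in Cy3 throughout the 3 arrays of some age, or in Cy5 throughout all 9. No member was saturated on any array.

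RNA came from thymus suspensions that had been strained, washed and cleared of red cells by lysis, from 3 mice each of 6, 16 and 24 months. Every older mouse was labelled with Cy3 and shared its 2-colour Agilent array with Cy5-labelled RNA of 1 month old C57BL/6 mice. The design text calls that 1 month RNA a pool, while the labels number 9 single mice. The files do not settle which holds, so the 1 month RNA was counted as 1 control sample. All values below are log2 ratios of the older mouse over the 1 month RNA on the same array, after a loess correction within the array, unless another scale is named. No array had its dyes swapped, so in every comparison with 1 month the effect of age and that of dye cannot be told apart. Between the older ages a fixed dye effect of a probe cancels. In a suspension of many cells, fewer cells of a type and less RNA per cell cannot be told apart. Sex was not given, and no treatment or genetic change was described.

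Of all non-control features, 79.6% to 94.2% were well above background in Cy3 and 90.5% to 95.4% in Cy5. The label of thymocytes was checked on 14 markers. Of these, 12 were measured and all 12 were well above background in both channels of all 9 arrays, with a mean log2 ratio per array of 0.19 to 0.47. Of 9 thymic epithelium markers, 5 were measured, with a mean log2 ratio of -1.14 to -0.85 at 6 months, -0.93 to -0.76 at 16 months and -0.63 to -0.12 at 24 months. Of 8 erythroid markers, 5 were measured, with means of -0.67 to -0.43 at 6 months, -0.25 to 0.84 at 16 months and -0.54 to 0.54 at 24 months. The 6 granulocyte markers, 2 of them well above background throughout, had a mean of 1.48 on 16 month replicate 2 and -1.75 to -0.66 elsewhere. Means of 5 plasma cell markers were 0.00 to 0.17 at 6 months, 0.38 to 0.85 at 16 months and 0.27 to 0.65 at 24 months. Macrophage and dendritic cell markers lay at -0.22 to -0.11 at 6 months and 0.11 to 0.62 at the older ages. What part any of these cells have in the values below was not tested. The erythroid signal is set beside some members below.

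The spliceosome removes introns from pre-messenger RNA. It assembles from small nuclear ribonucleoproteins (snRNPs), each a small nuclear RNA (snRNA) with a protein ring and particle-specific proteins. The ring is made of Sm proteins, or on U6 RNA of LSm proteins. The U1 snRNP pairs with the start of the intron, U2AF and the U2 snRNP with its SF3 complexes bind near the end, and Prp proteins bring in and rearrange the remaining particles. SR proteins bind exons and help choose the sites. Developing T cells use alternative splicing widely, for example in the gene of the surface phosphatase CD45.

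The upstream flanks of 4 genes are shown because these genes stood at the ends of the loess values. Snrpd3 and Sfrs1 (now Srsf1) had the highest mean log2 ratios of the members over the arrays, and Snrpe and Sfrs10 (now Tra2b) the lowest. The direction of Sfrs1 turned under median centring at 6 and 24 months, as given below. Each line gives the 250 bases before the annotated start in RefSeq, build GRCm38.p6, read 5′ to 3′ on the strand of the gene. Capitals mark the letters of a CCAAT box (CCAAT), a GC box (GGGCGG) or an ETS core (CCGGAAG) on either strand, found by a search of the letters. In Snrpd3 the GC box and 1 of its CCAAT boxes overlap, and Snrpe has no capitals.
Snrpd3, chr10:75517792-75518041, plus strand: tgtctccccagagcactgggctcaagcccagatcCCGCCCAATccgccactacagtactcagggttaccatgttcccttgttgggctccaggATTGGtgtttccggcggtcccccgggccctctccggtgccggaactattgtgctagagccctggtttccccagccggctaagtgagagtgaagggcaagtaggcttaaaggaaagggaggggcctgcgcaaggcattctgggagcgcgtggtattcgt
Srsf1, chr11:88047123-88047372, plus strand: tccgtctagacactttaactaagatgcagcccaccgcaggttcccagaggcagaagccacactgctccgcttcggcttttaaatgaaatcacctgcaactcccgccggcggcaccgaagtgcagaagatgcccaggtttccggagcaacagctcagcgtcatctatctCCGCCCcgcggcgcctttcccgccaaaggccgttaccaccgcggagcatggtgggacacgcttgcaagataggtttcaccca
Snrpe, chr1:133610281-133610530, minus strand: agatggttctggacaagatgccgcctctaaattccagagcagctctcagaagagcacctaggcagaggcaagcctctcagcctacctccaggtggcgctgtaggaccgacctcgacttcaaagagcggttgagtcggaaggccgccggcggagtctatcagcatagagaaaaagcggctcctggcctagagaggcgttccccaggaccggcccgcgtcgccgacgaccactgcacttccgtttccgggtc
Tra2b, chr16:22266006-22266255, minus strand: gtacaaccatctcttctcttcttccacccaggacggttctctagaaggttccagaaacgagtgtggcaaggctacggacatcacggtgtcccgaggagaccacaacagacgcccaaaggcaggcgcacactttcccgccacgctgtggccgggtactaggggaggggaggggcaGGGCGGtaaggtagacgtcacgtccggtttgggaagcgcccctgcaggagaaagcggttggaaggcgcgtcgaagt

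Of the 31 member genes, 28 had such a flank in RefSeq. The GC box stood in 20 of the 28 (71.4%), against 35.4% of the flanks of all 27025 genes searched in the same way. The ETS core stood in 9 (32.1%), against 7.83% of all genes. The CCAAT box stood in 7 (25%), against 37.5%, and a TATA box (TATAAA) in 4 (14.3%), against 14.3%. Genes with a GC box included both the higher Snrpd3 and Sfrs1 and the lower Sfrs10. Snrpe had none of these 4 motifs in its flank. A match is a description of the letters in the window and no evidence of binding.

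The first question was which splicing genes differed between thymocytes of older mice and those of 1 month old mice. With limma's moderated test and Benjamini-Hochberg adjustment over all probes, 15 of 38 member probes (39.5%) passed an adjusted p of 0.05 at 6 months, where 16.6% of all probes passed. At 16 months 18 of 38 (47.4%) passed, against 24.4% of all probes, and at 24 months 15 of 38 (39.5%), against 21.5%. With loess the members were thus called more often than probes at large in all 3 comparisons, which share the 1 month RNA. Because the members were chosen with earlier results of these data known, this is a description and not a test. Each array was also centred on its median in place of loess. Then 21, 19 and 26 of the 38 members passed at 6, 16 and 24 months (68.4% at 24 months). Of all probes, 52.4%, 44.5% and 70.9% passed under that centring. The share of members was then near that of all probes at each age, slightly above it at 6 and 16 months and slightly below it at 24 months. The wider gap seen with loess thus depended on the loess correction.

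Most called members were higher in the older mice: 12 of the 15 at 6 months (8.93% of all probes passed as higher), 14 of the 18 at 16 months (13.0%) and 11 of the 15 at 24 months (9.91%). Lower were 3 at 6 months (7.66% of all probes), 4 at 16 months (11.4%) and 4 at 24 months (11.6%). The median over the 38 probes was 0.142, 0.155 and 0.097 at 6, 16 and 24 months, against -0.011, -0.013 and -0.011 over all probes tested. This balance depended on the loess correction: with each array centred on its median in place of loess, the member medians were -0.147, -0.106 and -0.367. The split of higher to lower calls was then 10 to 11, 7 to 12 and 8 to 18. Over all probes it was 9188 to 10435, 6876 to 9775 and 11714 to 14839 under that centring, against 3345 to 2870, 4851 to 4280 and 3711 to 4335 with loess. Below, each called direction of a named gene that turns under median centring is marked as such. Median centring moved the brighter members down and the dimmest up. At 6 months Snrpe (mean log2 intensity 11.2) went from -0.27 to -0.87, and Snrpa (7.09) from 0.51 to 0.73. A bright probe lower with loess, or a dim one higher, could thus hardly turn. Whether a sign was kept therefore reflects brightness as well, and a kept sign is a limited check. Counts over groups and lists are those with loess unless stated, and not every gene in them that turned is named. The scanner software's processed signals gave 11 to 1, 14 to 4 and 15 to 6.

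**Figure D1:**
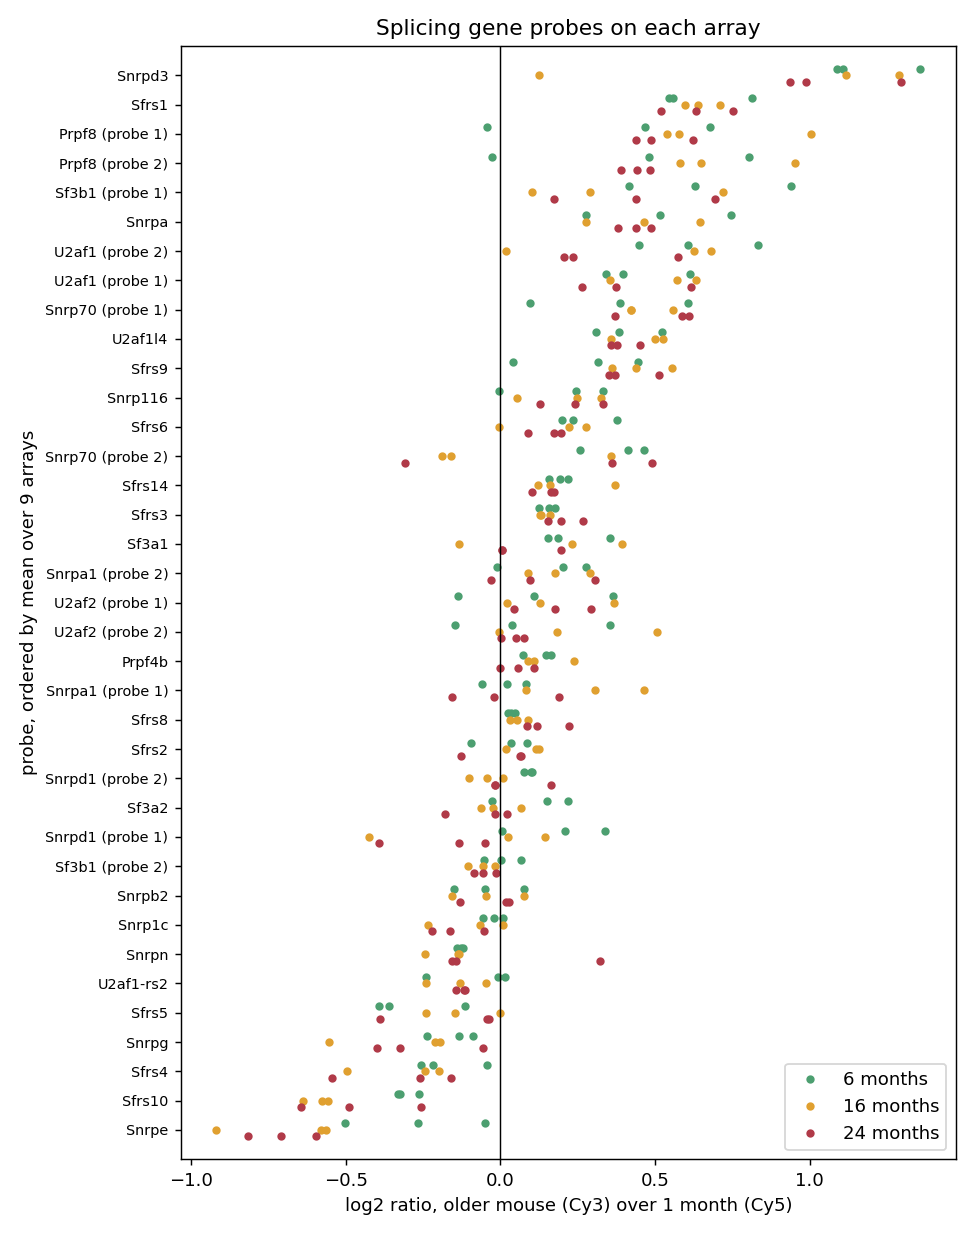
Log2 ratio of the older mouse (Cy3) over 1 month (Cy5) on each array, after loess, for 37 of the 38 tested probes (rows, ordered by their mean over 9 arrays). Points are single arrays, coloured by age; Snrpd3 lies at the top with 8 of its 9 arrays near or above 0.94, and Snrpe at the bottom with all 9 below 0, and under median centring in place of loess the sign of values that had passed the threshold turned at 1 age or more for Sfrs1, Sfrs9, Snrp70 (probe 1), U2af1 (probe 1), U2af1l4, Sfrs6, Sfrs8 and Snrpa1 (probe 1).

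At all 3 ages 8 member probes passed as higher (4.68% of all probes did), namely Snrpd3, Sfrs1, Sfrs3, Sfrs9, Snrpa, U2af1l4 and 1 probe each of U2af1 and Snrp70. Under median centring Sfrs9 and the probes of U2af1 and Snrp70 turned at every age, Sfrs1 at 6 and 24 months and U2af1l4 at 24 months, while Snrpd3, Sfrs3 and Snrpa kept their sign. As lower at all 3 ages 1 member passed, Sfrs10, which kept its sign (3.91% of all probes). At least 1 age was called for 23 of the 38 probes, against 35.8% of all probes. Regardless of any test, 12 member probes lay above 0 on all 9 arrays (11.9% of all probes did) and 6 below 0 on all 9 (14.5%).

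Among the Sm core proteins, which form the Sm ring on snRNAs, Snrpd3 and Snrpe went opposite ways. Snrpd3 encodes SmD3 (probe A_51_P176681). Its log2 ratios were 1.36, 1.09 and 1.11 at 6 months, 0.12, 1.29 and 1.12 at 16 months, and 0.99, 1.30 and 0.94 at 24 months. All 9 were above 0, and the 3 ages overlapped, with 16 month replicate 1 alone near 0. Other members also had their lowest value on that array, among them Snrpe, Snrpg and Snrpd1 on each of its probes. The low value there was thus not particular to Snrpd3.

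The processed signals behind these ratios show both channels of Snrpd3. In the older mice they were 18582, 13745 and 12840 at 6 months, 6993, 17514 and 15660 at 16 months, and 12364, 11671 and 13809 at 24 months. In the 1 month channel of the same arrays they were 7089, 6215 and 5666, then 6370, 6944 and 6994, then 5979, 4343 and 7010. The low ratio of 16 month replicate 1 thus went with a low Cy3 signal, while its Cy5 signal lay inside the range of the other arrays.

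Snrpd3 was 2.27-fold higher at 6 months than at 1 month (log2 1.18, SE 0.19, limma adjusted p = 0.00761) and 1.80-fold at 16 months (log2 0.84, SE 0.19, limma adjusted p = 0.0144). At 24 months it was 2.10-fold higher (log2 1.07, SE 0.19, limma adjusted p = 0.00677). Under median centring the 3 values kept their sign but were 0.63, 0.33 and 0.22, and the last 2 missed the threshold (limma adjusted p = 0.210 and 0.366). The call at 16 months was lost without 16 month replicate 2 (log2 0.62) or replicate 3 (0.71), and that at 6 months without 6 month replicate 2 (1.23, limma adjusted p = 0.0589). With only the arrays of the age in the fit the call at 16 months missed (limma adjusted p = 0.0946), and with haemoglobin as a covariate that at 6 months (log2 1.01, limma adjusted p = 0.110).

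Snrpe encodes SmE. It measured -0.50, -0.26 and -0.05 at 6 months, -0.92, -0.56 and -0.58 at 16 months, and -0.81, -0.71 and -0.60 at 24 months. The arrays of 16 and of 24 months all lay below those of 6 months, without overlap. Snrpe was 1.61-fold lower at 16 months than at 1 month (log2 -0.69, SE 0.09, limma adjusted p = 0.00240) and 1.63-fold lower at 24 months (log2 -0.71, SE 0.09, limma adjusted p = 0.00242). At 6 months it missed the threshold (log2 -0.27, limma adjusted p = 0.0760).

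Snrpg, the gene of SmG, measured -0.24, -0.13 and -0.09 at 6 months, -0.55, -0.21 and -0.19 at 16 months, and -0.32, -0.05 and -0.40 at 24 months. All 9 arrays lay below 0 and the ages overlapped. It fell at 16 months (log2 -0.32, limma adjusted p = 0.0247). Snrpd1, the gene of SmD1, passed at no age on either of its 2 probes, which had means of 0.18 and 0.09 at 6 months, -0.09 and -0.05 at 16 months, and -0.19 and 0.04 at 24 months. Snrpn, an imprinted gene whose product SmN is known from brain, passed at no age. It lay between -0.24 and -0.12 on 8 arrays and at 0.32 on 24 month replicate 2. Of the 6 Sm core probes, 1 rose at each age (Snrpd3), and 0, 2 and 1 fell at 6, 16 and 24 months. The shares of all probes at these ages were 8.93%, 13.0% and 9.91% higher and 7.66%, 11.4% and 11.6% lower.

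**Figure D2:**
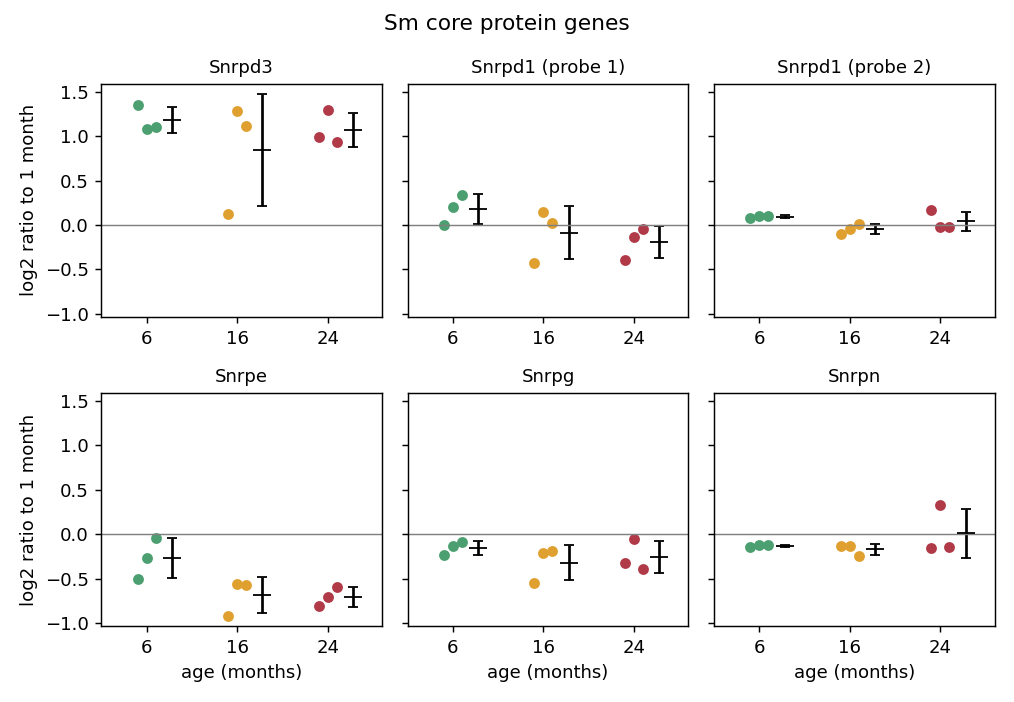
Log2 ratio over 1 month, after loess, for the 6 tested probes of Sm core genes at 6, 16 and 24 months. Points are the 3 arrays of an age and bars the mean ± SD (n = 3); Snrpd3 lies above 0 and Snrpe and Snrpg below 0 on all 9 arrays, and none of these 3 turned its mean under median centring.

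Of the U1 and U2 snRNP proteins, none of the 7 probes fell at any age with loess (7.66%, 11.4% and 11.6% of all probes did). At 6, 16 and 24 months 2, 3 and 2 rose (8.93%, 13.0% and 9.91% of all probes), of which Snrp70 and Snrpa1 turned under median centring. Snrpa encodes the A protein and Snrp70 (now Snrnp70) the large specific protein of the U1 snRNP. Snrpa measured 0.75, 0.52 and 0.28 at 6 months, 0.28, 0.65 and 0.47 at 16 months, and 0.49, 0.38 and 0.44 at 24 months. Its 9 arrays overlapped across the ages and all lay above 0, with means of 0.51, 0.46 and 0.43 (SE 0.09, limma adjusted p = 0.00948, 0.00805 and 0.0117). Under median centring Snrpa kept its sign, at 0.73, 0.62 and 0.70.

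The 2 probes of Snrp70 differed. Probe 1 (A_51_P356144) measured 0.61, 0.39 and 0.10 at 6 months, 0.42, 0.56 and 0.42 at 16 months, and 0.61, 0.59 and 0.37 at 24 months. It rose with loess at all 3 ages (0.36, 0.47 and 0.52; limma adjusted p = 0.0261, 0.00739 and 0.00563), but turned to -0.32, -0.20 and -0.62 under median centring. Probe 2 (A_52_P501767) measured 0.47, 0.41 and 0.26 at 6 months, -0.16, -0.19 and 0.36 at 16 months, and 0.49, 0.36 and -0.31 at 24 months. It passed at no age, and 3 of its arrays lay below 0 where none of probe 1 did.

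Snrpa1, the gene of the A′ protein of the U2 snRNP, rose at 16 months on probe 1 (log2 0.29, limma adjusted p = 0.0315), a direction that turned to -0.20 under median centring, and on probe 2 it did not pass (0.19). Probe 1 measured 0.31, 0.46 and 0.08 at 16 months and 0.08, 0.02 and -0.06 at 6 months, which did not overlap before rounding. Snrpb2, the gene of the B″ protein of that particle, ranged from -0.16 to 0.08 and Snrp1c (now Snrpc), the gene of the C protein of the U1 snRNP, from -0.23 to 0.01. Neither passed at any age.

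The SF3 complexes hold the U2 snRNP on the branch site. Sf3b1, the subunit that clamps the branch site, rose at 6 months on 1 of its 2 tested probes (A_52_P220190). That probe measured 0.94, 0.63 and 0.42 at 6 months, 0.10, 0.29 and 0.72 at 16 months, and 0.70, 0.44 and 0.17 at 24 months. Its mean of 0.66 at 6 months passed (SE 0.14, limma adjusted p = 0.0166), those of 0.37 and 0.44 at 16 and 24 months did not. The other probe (A_52_P625808) ranged from -0.10 to 0.07. Sf3a1 ranged from -0.13 to 0.39 and Sf3a2 from -0.18 to 0.22, and neither passed at any age.

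The haemoglobin probes set 3 arrays apart, and some member probes had their lowest values there. The mean of 4 Hbb-b1 probes, the beta chain of adult haemoglobin, was -1.75, -1.73 and -1.09 at 6 months, 1.78, 1.19 and -0.67 at 16 months, and -1.71, 0.37 and 1.21 at 24 months. The 3 highest arrays were thus 16 month replicates 1 and 2 and 24 month replicate 3. On exactly these arrays the second Snrp70 probe lay below 0, and the Sf3b1 probe above had its 3 lowest values. The other tested probe of each gene did not show this. On these arrays Snrp70 probe 1 was at 0.42, 0.56 and 0.37, and the other Sf3b1 probe at -0.02, -0.10 and -0.01. How many of all probes share the pattern was not counted. Snrpd3 had its lowest value on the array of highest haemoglobin, 16 month replicate 1, but was at 1.29 and 0.94 on the other two. Sfrs1 was 0.60, 0.71 and 0.75 on the 3 arrays, inside its range elsewhere. With the haemoglobin mean as a covariate in the fit, the count of called members was 1, 15 and 15 at 6, 16 and 24 months, and over all probes 270, 7670 and 7927 were called. The member median at 6 months was 0.125 with the covariate, against 0.142 without it, so the calls were lost with the median about as large. Haemoglobin lay below -1 on all 3 arrays of 6 months, the age at which most calls were lost.

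**Figure D3:**
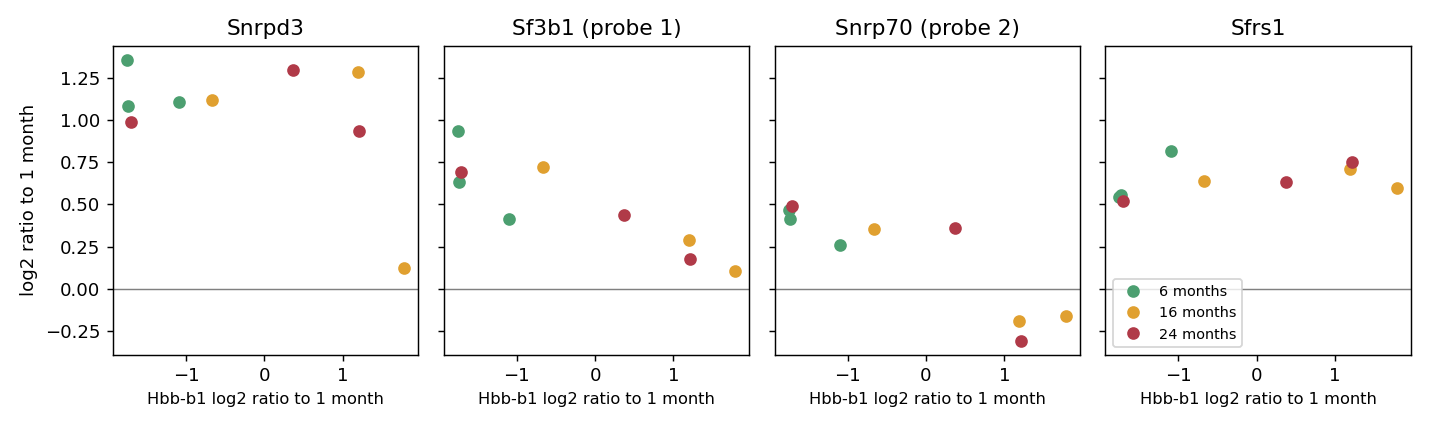
Log2 ratio over 1 month, after loess, of 4 member probes (vertical) against the mean log2 ratio of 4 Hbb-b1 probes (horizontal); each point is 1 array, coloured by age. The 3 arrays with Hbb-b1 above 1 hold the 3 lowest values of these Sf3b1 and Snrp70 probes, which the other tested probe of each gene did not show. Sfrs1 stays between 0.52 and 0.81 on all 9 arrays. Under median centring the mean of Sfrs1 turned at 6 and 24 months, that of the Snrp70 probe at every age and that of the Sf3b1 probe at 24 months.

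U2AF recognises the end of the intron, and its small subunit, encoded by U2af1, rose in the older mice on loess values. Probe 1 (A_52_P230947) measured 0.61, 0.40 and 0.34 at 6 months, 0.36, 0.63 and 0.57 at 16 months, and 0.26, 0.37 and 0.62 at 24 months. Its means of 0.45, 0.52 and 0.42 passed (SE 0.08, limma adjusted p = 0.0106, 0.00367 and 0.00944), but turned to -0.17, -0.08 and -0.58 under median centring. Probe 2 (A_51_P364786) measured 0.83, 0.61 and 0.45 at 6 months, 0.02, 0.68 and 0.63 at 16 months, and 0.20, 0.24 and 0.57 at 24 months. It passed at 6 and 16 months (0.63 and 0.44), where it kept its sign, and not at 24 months (0.34).

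The related U2af1l4, whose product can stand in for the small subunit and is known in T cells for the alternative splicing of CD45, varied little between arrays. It measured 0.52, 0.38 and 0.31 at 6 months, 0.36, 0.53 and 0.50 at 16 months, and 0.36, 0.38 and 0.45 at 24 months. The ages overlapped, and the means were 0.41, 0.46 and 0.40 (SE 0.05, limma adjusted p = 0.00349, 0.00116 and 0.00208). Under median centring they were 0.04, 0.10 and -0.14, so the direction at 24 months turned.

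The large subunit gene U2af2 ranged from -0.15 to 0.51 over its 2 probes and U2af1-rs2 (now Zrsr2), a gene on the X chromosome whose product acts in the minor spliceosome, from -0.24 to 0.02. Neither gene passed at any age. Both were dim: in Cy3, U2af1-rs2 was well above background on 3, 2 and 1 arrays at 6, 16 and 24 months, and the second U2af2 probe on 1, 3 and 2.

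SR proteins bind exonic enhancers. Of their 7 genes, 4, 3 and 3 rose at 6, 16 and 24 months with loess, and 1 fell at each age. Some of these rises turned under median centring, as given below. Among all probes 8.93%, 13.0% and 9.91% passed as higher and 7.66%, 11.4% and 11.6% as lower. Sfrs1 (Srsf1), the best studied SR protein, measured 0.54, 0.56 and 0.81 at 6 months, 0.60, 0.71 and 0.64 at 16 months, and 0.52, 0.63 and 0.75 at 24 months. All 9 arrays lay within a narrow band and the ages overlapped. It was 1.56-fold, 1.57-fold and 1.55-fold higher at 6, 16 and 24 months than at 1 month (SE 0.06 on the log2 scale; limma adjusted p = 0.00215, 0.000814 and 0.00109), the lowest adjusted p of any member in each comparison. Under median centring its values were -0.02, 0.02 and -0.44, so the direction at 6 and 24 months turned.

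Sfrs9 (Srsf9) measured 0.45, 0.32 and 0.04 at 6 months, 0.36, 0.56 and 0.44 at 16 months, and 0.35, 0.37 and 0.51 at 24 months. It rose on loess values (0.27, 0.45 and 0.41; limma adjusted p = 0.0395, 0.00434 and 0.00717), and each direction turned under median centring (-0.31, -0.10 and -0.49). The call at 6 months was also lost with the processed signals and without 6 month replicate 1 or 2. Sfrs3 (Srsf3) varied little, at 0.13 to 0.18 at 6 months, 0.13 to 0.16 at 16 months and 0.15 to 0.27 at 24 months. Its small rises of 0.15, 0.14 and 0.21 passed (limma adjusted p = 0.0202, 0.0186 and 0.00547) and kept their sign, but at 6 and 16 months the call was lost without any 1 of the 3 arrays of that age.

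Sfrs6 (Srsf6) rose at 6 months (log2 0.27, limma adjusted p = 0.0185), a direction that turned to -0.13 under median centring, and its values of 0.17 and 0.15 at 16 and 24 months missed the threshold. Sfrs2 (Srsf2) ranged from -0.13 to 0.13 and passed at no age. Sfrs4 (Srsf4) lay below 0 on all 9 arrays and fell at 16 and 24 months (log2 -0.31 and -0.32, limma adjusted p = 0.0268 and 0.0269). Sfrs5 (Srsf5) fell at 6 months (log2 -0.29, limma adjusted p = 0.0448) and measured -0.13 and -0.16 at 16 and 24 months. Sfrs4 and Sfrs5 kept their signs under median centring.

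Sfrs10 (Tra2b) encodes an SR-like protein that promotes the inclusion of exons. It measured -0.33, -0.32 and -0.26 at 6 months, -0.56, -0.64 and -0.58 at 16 months, and -0.64, -0.49 and -0.26 at 24 months. The arrays of 16 months all lay below those of 6 months. Sfrs10 was 1.24-fold lower at 6 months, 1.51-fold lower at 16 months and 1.38-fold lower at 24 months than at 1 month (log2 -0.31, -0.59 and -0.46; SE 0.06; limma adjusted p = 0.0163, 0.00112 and 0.00264). Median centring gave -0.91, -1.16 and -1.40.

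**Figure D4:**
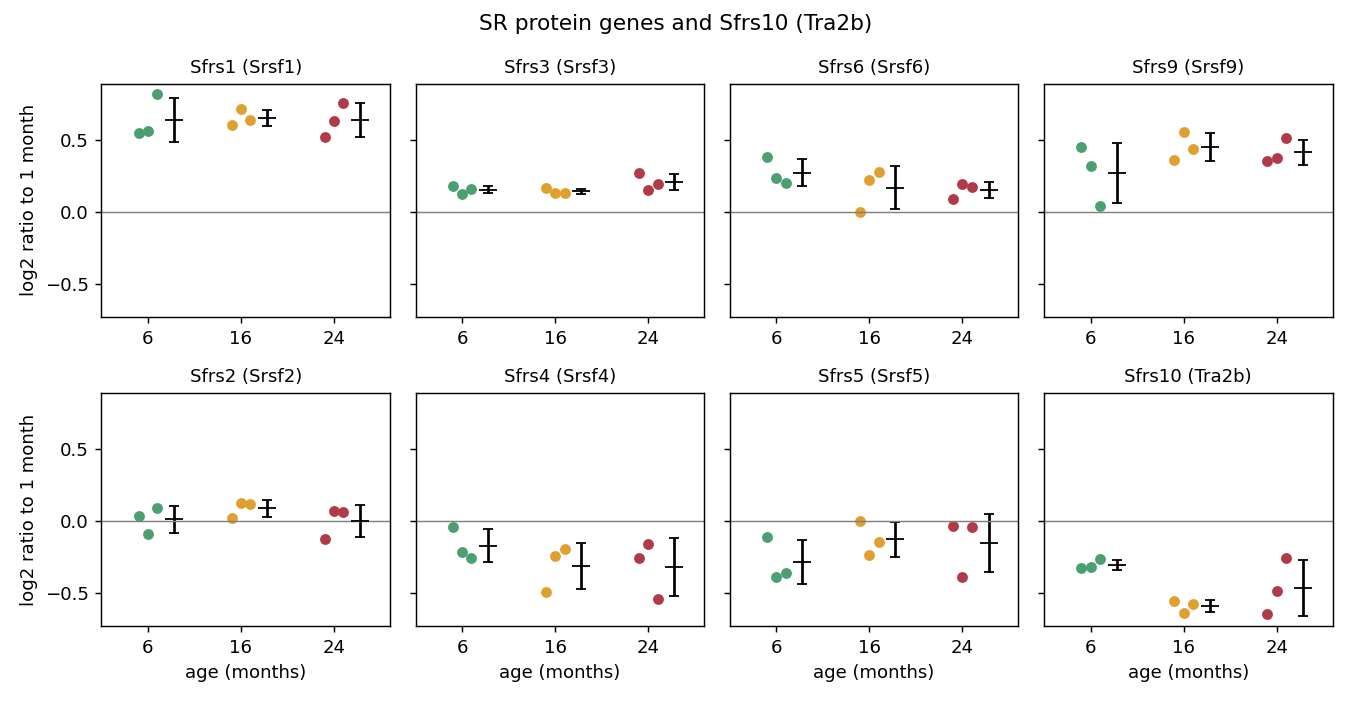
Log2 ratio over 1 month, after loess, for 7 SR protein genes and Sfrs10 at 6, 16 and 24 months. Points are the 3 arrays of an age and bars the mean ± SD (n = 3); Sfrs1, Sfrs3 and Sfrs9 lie above 0 and Sfrs4, Sfrs5 and Sfrs10 below 0 on all 9 arrays, and under median centring the means of Sfrs2, Sfrs6 and Sfrs9 turned at every age and that of Sfrs1 at 6 and 24 months.

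Of the Prp proteins, Prpf8 encodes the large U5 protein at the catalytic centre. Probe 1 (A_51_P168665) measured 0.68, 0.47 and -0.04 at 6 months, 0.58, 1.01 and 0.54 at 16 months, and 0.44, 0.62 and 0.49 at 24 months. Probe 2 (A_51_P168662) measured 0.80, 0.48 and -0.03, then 0.65, 0.95 and 0.58, then 0.48, 0.39 and 0.44. On both probes 6 month replicate 3 alone lay below 0 and 16 month replicate 2 was highest, while 24 month replicate 2 was the highest of its age on probe 1 and the lowest on probe 2.

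Prpf8 rose at 16 months on both probes (0.71 and 0.73; SE 0.13; limma adjusted p = 0.00714 and 0.00660) and at 24 months (0.52 and 0.44; limma adjusted p = 0.0253 and 0.0447). Its values of 0.37 and 0.42 at 6 months missed the threshold. The signs held under median centring, where probe 1 at 24 months was 0.02. Prpf4b, a kinase that acts on splicing proteins, rose at 16 months (log2 0.15, limma adjusted p = 0.0338) and measured 0.13 and 0.06 at 6 and 24 months.

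The remaining members differ in role. Sfrs14 (now Sugp2), named for its resemblance to SR proteins, rose at 6 and 16 months (0.19 and 0.22; limma adjusted p = 0.0317 and 0.0140) and measured 0.15 at 24 months. Sfrs8 (now Sfswap), a regulator of splicing first described in the fly, rose at 24 months by 0.14 (limma adjusted p = 0.0246), a direction that turned to -0.11 under median centring. Snrp116 (now Eftud2), the U5 GTPase that works beside Prpf8, measured 0.19, 0.21 and 0.23 and passed at no age (limma adjusted p = 0.104, 0.0690 and 0.0520).

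**Figure D5:**
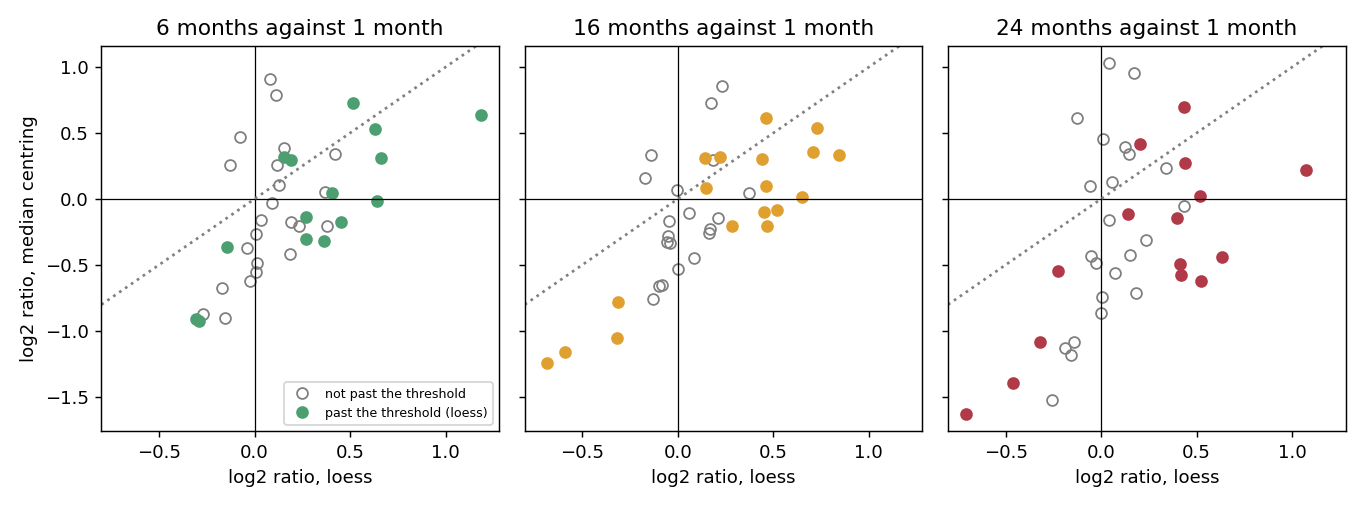
Mean log2 ratio over 1 month of the 38 tested member probes with loess (horizontal) and with each array centred on its median (vertical), 1 panel per age; filled points passed the threshold with loess, and the dotted line marks equal values. Filled points below 0 on the vertical and above 0 on the horizontal axis turned sign: 5 probes at 6 months, 4 at 16 months and 6 at 24 months.

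The second question was whether the splicing genes differed among the older ages. No member passed in any of the 3 contrasts, and 0 of 37448 probes did (0.0%), with the lowest adjusted p of a member 0.600 at 16 against 6 months, 0.506 at 24 against 6 months and 0.909 at 24 against 16 months in limma. At an unadjusted p of 0.05, 3, 2 and 2 of the 38 members passed, where 8.04%, 8.52% and 4.40% of all probes did. An F test over the 3 ages called 0 probes (0.0%), with 0.696 as the lowest adjusted p of a member. The member medians were -0.007, -0.046 and -0.024 in these contrasts.

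These tests do not show that the ages were alike. Between 24 and 6 months Snrpd3 differed by -0.11 (SE 0.27), Sfrs1 by -0.00 (SE 0.09), Sfrs10 by -0.16 (SE 0.09) and Snrpe by -0.43 (SE 0.13). Snrpe had the lowest adjusted p of the members at 24 against 6 months and shared the lowest with Sfrs10 at 16 against 6 months. Its ratio of 24 against 16 months was -0.02.

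Arrays of 2 ages did not overlap for 5 of the 38 members at 16 against 6 months (13.8% of all probes), 5 at 24 against 6 months (15.0%) and 2 at 24 against 16 months (10.1%). These shares are near the background. At 16 against 6 months 2 members lay higher (6.68% of all probes), among them Snrpa1 (probe 1), and Snrpe, Sfrs10 and Snrpd1 (probe 2) lower (7.11%). At 24 against 6 months Sfrs8 lay higher (5.95%) and 4 members lower (9.02%), among them Snrpe, Snrpd1 (probe 1) and Sfrs6. At 24 against 16 months no member lay higher (4.78%) and 2 lay lower (5.36%), among them Prpf8 (probe 2). Each of the mean differences named kept its sign under median centring. None of these genes passed the adjusted test.

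Some genes of the same protein groups carry other names on this array and fell outside the rule. Sf3b6, a small SF3b subunit that touches the branch site, was at -0.39, -0.74 and -0.63 at 6, 16 and 24 months, and Srsf11 at -0.65, -0.58 and -0.61. Prpf18, a factor of the second catalytic step, was at -0.51, -0.41 and -0.63. These 3 passed as lower at every age and kept their sign under median centring, which moved all of them further down. Srsf10, the SR protein that represses splicing when dephosphorylated, passed as higher at every age (0.25, 0.38 and 0.31), also with its sign kept. Sf3b3, Prpf19, Prpf31 and Prpf40b passed at 1 age each and Sf3b5 at none. Of these calls, only that of Prpf31, higher at 16 months (0.21), turned under median centring (-0.32).

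Of 111 further splicing genes measured, drawn from lists of textbook roles that leave out the members, 22 were higher and 15 lower at 6 months. At 16 months 28 were higher and 17 lower, and at 24 months 16 were higher and 18 lower. Of all probes, 8.93% were higher and 7.66% lower at 6 months, 13.0% and 11.4% at 16 months, and 9.91% and 11.6% at 24 months. The same shares stand beside the counts by role that follow. Median centring gave 12 to 54, 11 to 44 and 11 to 77. Over all 37448 probes that centring gave 9188 to 10435, 6876 to 9775 and 11714 to 14839. Their medians with loess were 0.075, 0.103 and 0.051, below those of the members at each age.

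By role, and with loess, the hnRNP proteins, which coat pre-messenger RNA and often oppose SR proteins, were split: of 22 measured, 2, 5 and 4 rose and 6, 6 and 5 fell at 6, 16 and 24 months. Hnrnpa1 was at -0.57, -0.63 and -0.35 and kept its sign under median centring, whereas Hnrnpu, at 0.42, 0.52 and 0.59, turned at all 3 ages. Of 6 LSm ring genes, whose products bind U6 RNA or, for Lsm10, U7 RNA, none rose and 1, 2 and 2 fell. Lsm3, at -0.23, -0.46 and -0.39, kept its sign.

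Of 13 SR-related genes 3 rose at each age and 1, 2 and 2 fell. Srrm1, a coactivator that bridges SR proteins and snRNPs, was at 0.46, 0.52 and 0.48, and turned at 24 months under median centring. Of 15 genes of snRNP assembly, which load Sm rings onto snRNA, 5, 3 and 1 rose and 1, 1 and 2 fell. Phax, which exports snRNA from the nucleus, rose at 6 and 16 months (0.29 and 0.31), both turned under median centring, and measured 0.15 at 24 months.

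Of 23 accessory genes of U1, U2 and the intron end, 7, 7 and 5 rose and 0, 3 and 2 fell. Elavl1, a binder of U-rich RNA, was at 0.33, 0.48 and 0.40 with its sign kept. Of 14 genes of the Prp19 complex and the catalytic steps, 3, 4 and 1 rose and 3, 2 and 3 fell. Ctnnbl1, a partner of that complex, was at 0.48, 0.60 and 0.50, and turned at 24 months under median centring. Of 7 minor spliceosome genes 0, 2 and 0 rose and 1, 1 and 2 fell, of 6 helicase genes 1, 2 and 1 rose and 2, 0 and 0 fell, and of 5 exon junction genes 1, 2 and 1 rose and none fell.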

How the data were processed

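Thymocyte RNA of 9 older mice and of 1 month old mice was measured on 9 arrays of 2 channels, 3 per age. As deposited, the scanner files give intensity per feature, both raw with its local background and as processed signal, which the authors' software normalized between the dyes by LOWESS. The version is Agilent Feature Extraction 7.5.1 per the file headers and 7.1 per the submitters' processing notes. The deposited values of each channel are a score, found here to be the log10 processed signal scaled by the authors to mean 0 and unit spread.

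Mean signals were corrected with normexp (offset 50) and loess within arrays in limma 3.58.1 under R 4.3.3. Control spots and spots marked as outliers were left out, and spots of a probe averaged. All 9 arrays and 37448 probes entered 1 limma fit with 3 age means (residual degrees of freedom 6, prior 2.80, by empirical Bayes), two-sided, with Benjamini-Hochberg adjustment over all probes. A comparison with 1 month tests the mean of 3 ratios against 0; if that RNA was 1 pool, differences among 1 month mice do not enter. The labels do not say whether the mice of an age were processed apart, so p-values measure the spread between these samples, and the number of arrays limits precision. Snrpd3 was always named; others were named as the largest changes past the threshold at each age and the highest and lowest member of each role. Lists used 1 probe per gene, that of highest mean intensity. The values of 1 member gene enter the counts and are otherwise not reported here. Current symbols came from RefSeq tables for all 40 member probes. The members and lists were chosen with earlier results of these data known. The fits were tested on simulated data. Python 3.11.15 (pandas 2.3.3, numpy 2.4.6) made the tables and matplotlib 3.10.9 the figures. Alternatives covered scaling, background, filter, samples, covariates and the deposited values. The 2-channel files of both samples of an array were identical.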

Additional observations from a re-analysis of the deposited data

Results flagged for a closer look

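On the array of 24 month replicate 2 the processed 1 month (Cy5) signal of Snrpd3 was 4343, against a median of 6370 over the 9 arrays, and its gap to the next lowest array made up 0.543 of the whole range, above the limit of 0.493 for 9 values. The 1 month signal of Sfrs1 was lowest on the same array, at 13728 against a median of 21792, with the same share of 0.543. The signals of Snrpe and Sfrs10, tested in the same way, were also lowest on that array but did not pass the limit. Of the 38 tested member probes, 30 had their lowest 1 month signal there, so the low signal was not particular to Snrpd3 and Sfrs1. Of values without any true outlier about 1 group in 20 would be marked so. The log2 ratios on that array, 1.30 for Snrpd3 and 0.63 for Sfrs1, lay inside the range of the other arrays.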

How the results depend on the processing

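The 48 called values of members against 1 month kept their direction under every alternative but median centring, which turned 15. These were, at 6 months, Sfrs9 (-0.31), Snrp70 (-0.32), Sfrs1 (-0.019), U2af1 (-0.17) and Sfrs6 (-0.13); at 16 months, Snrpa1 (-0.20), Sfrs9 (-0.10), Snrp70 (-0.20) and U2af1 (-0.082); and at 24 months, Sfrs9 (-0.49), Snrp70 (-0.62), Sfrs1 (-0.44), U2af1l4 (-0.14), U2af1 (-0.58) and Sfrs8 (-0.11). That centring called 26 members at 24 months, against 15 with loess, and 70.9% of all probes; the cause was not tested. The count at 6 months was 1 with haemoglobin as a covariate, and that at 16 months was 10 with only the arrays of that age in the fit, which leaves fewer samples. Leaving out 1 array gave 2 to 16 calls at 6 months, 6 to 19 at 16 months and 10 to 20 at 24 months. The lowest counts came without 6 month replicate 2 (2; without replicate 1 it was 4), 16 month replicate 2 (6) and 24 month replicate 1 (10). Between ages every alternative gave 0 calls of members. The replicate block gave 15, 14 and 15 calls against 1 month and 0 between ages; the numbers did not pair the samples (correlations of same-numbered arrays -0.47 to 0.22, 2 of 9 over 0.1, and the own number best in 5 of 18 cases). Without 6 month replicate 2, 17 of the 48 called values were lost. With no filter on dim probes, with scaling between arrays and without saturated probes, all 48 calls held. Dim members such as U2af2 and U2af1-rs2 are limited by their signal over background.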
